A study of Homo sapiens with 26 samples.

Results

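The antigen receptor loci are 6 stretches of the human genome that hold the gene segments of the antibody and T-cell receptor chains: IGK and IGL (the immunoglobulin light chains), IGH (the immunoglobulin heavy chain), TRG (the T-cell receptor gamma chain), TRB (the beta chain) and TRA (the alpha chain, with the delta chain TRD inside it). They were chosen by position in hg19 and not by their values, as every 100 kb bin of the measured table that overlaps 1 of the 6 loci. Of 55 such bins, 54 had a value, against 26584 of 30376 bins genome-wide. After leaving out bins that were 0 in every cell, 52 bins of the loci and 26331 bins of the whole table were used.

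The samples were 26 single cells of KBM7, a near-haploid human line derived from chronic myeloid leukaemia, all from clone 5-8 and all labelled haploid (1N). Each cell carried Dam, a bacterial adenine methyltransferase that marks GATC motifs, unfused to any other protein according to the cell labels, although the series title names LaminB1. Dam was stabilised with 0.5 nM Shield1 for 15 h, and the smallest cells with both Fucci cell-cycle reporters were sorted 1 by 1. The series text counts 124 such cells, of which 26 are analysed here. There was 1 group from 1 clone, with no untreated or control group and no separate cultures named, so cells served as units of description and no p-value was computed. A difference was called lower or higher only where at least 21 of the 26 cells (80%) showed it.

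Antigen receptor loci are built for V(D)J recombination, in which the RAG recombinase of developing lymphocytes joins a variable segment, a diversity segment at some loci, and a joining segment into 1 exon next to a constant gene. Variable segments fill most of each locus, with the joining segments and constant genes at one end. T-cell receptor loci are assembled in T-cell precursors and immunoglobulin loci in B-cell precursors, and in other cell types these loci are usually silent and closed. Unfused Dam methylates accessible chromatin more readily than compact chromatin, which is the use it is put to in DamID. Whether any of the 6 loci was rearranged or had lost DNA in this clone was not tested.

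The segment content came from RefSeq annotation of GRCh38.p14, a newer build than the hg19 of the bins, so it was used for gene names and gene order and no gene was placed in a bin. IGH held 48 variable, 27 diversity, 6 joining and 9 constant genes in that annotation. TRA with TRD held 49 variable, 3 diversity, 62 joining and 2 constant genes, while TRG was the smallest with 6 variable, 5 joining and 2 constant genes. TRB held 44 variable, 2 diversity, 13 joining and 2 constant genes. The light-chain loci held no diversity segments, with 44 variable, 5 joining and 1 constant gene at IGK and 37, 7 and 4 at IGL. Gene order placed the constant genes at the low-coordinate end of IGK, TRG and IGH and at the high-coordinate end of TRB, TRA and IGL.

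Dam can mark DNA only at the motif GATC, which reads the same on both strands, so 2 promoters are printed to show a promoter with the motif and one without it. VPREB1, a gene inside IGL that encodes part of the surrogate light chain of the pre-B-cell receptor, held 1 GATC at chr22:22244536-22244835 (plus strand). DAD1, which encodes a subunit of the oligosaccharyltransferase complex and neighbours the constant end of TRA, held 0 at chr14:22589175-22589474 (minus strand). Both sequences are from RefSeq (GRCh38.p14), run from 250 bases before to 50 bases after the gene start, 5′ to 3′, and carry GATC in capitals.
VPREB1 promoter: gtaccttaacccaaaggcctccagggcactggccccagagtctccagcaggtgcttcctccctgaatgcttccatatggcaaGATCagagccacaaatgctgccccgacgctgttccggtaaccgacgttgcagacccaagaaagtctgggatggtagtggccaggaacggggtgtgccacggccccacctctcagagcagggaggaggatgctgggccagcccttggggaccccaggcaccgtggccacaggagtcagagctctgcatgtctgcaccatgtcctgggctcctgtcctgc
DAD1 promoter: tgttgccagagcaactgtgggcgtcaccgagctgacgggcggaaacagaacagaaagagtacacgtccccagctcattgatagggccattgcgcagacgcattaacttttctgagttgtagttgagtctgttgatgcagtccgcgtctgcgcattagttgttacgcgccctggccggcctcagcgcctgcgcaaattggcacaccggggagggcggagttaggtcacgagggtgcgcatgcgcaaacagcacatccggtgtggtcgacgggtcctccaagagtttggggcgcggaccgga
Named protein-coding genes inside the 6 loci, or nearest to them in gene order at any distance, numbered 23, these 2 included. Of the 23, 19 matched a RefSeq promoter entry, and 9 of those had GATC in at least 1 promoter. Counted by promoter, 11 of 21 had GATC, against 41.7% of all 35116 promoters of this length. The 6 neighbours at the constant ends (RPIA, STARD3NL, EPHB6, DAD1, TMEM121 and RSPH14) all had 0 GATC in this window. A promoter window is much shorter than a 100 kb bin and was not set against the Dam values.

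The measured value was the ratio of observed to expected Dam counts per bin as the authors deposited it. A locus's level in a cell is the mean ratio over its used bins divided by that cell's mean ratio over all used bins, so that 1 is the average of the cell. Underlying whole-number counts were recovered from the ratios: cells held 20182 to 178941 counts (median 42448.5), or 0.766 to 6.80 per used bin. The 6 loci together held 3045 counts over all cells. Intervals below are 95% exact intervals on counts summed over cells, which cover counting error only, and PCR copies could not be told apart from separate molecules. No pair among the 325 pairs of cells had identical values.

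As a group the receptor loci sat slightly above the typical bin. The median of the mean levels of their 52 bins was 1.03, against 0.793 over all used bins. Their bins were often poorly covered: 13 of 52 (25.0%) had an expected count under 50% of that of the median bin, against 3.43% of all used bins. Those low-expectation bins lay at IGK (7), IGH (4), TRB (1) and IGL (1). Of the 52 bins, 3 (5.77%) were at a ratio of 1 or more in at least 80% of cells, against a background of 5.61%, and 12 (23.1%) reached it in at most 20% of cells, against 33.5%. The first share was near the background, and the second comparison turned at a ratio of 0.5 or more, where 11.5% of receptor bins and 6.86% of all bins were marked in at most 20% of cells. The 3 widely marked bins were the middle bin of TRG and the last 2 bins of TRA, and 7 of the 12 rarely marked bins were in IGK.

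**Figure D1:**
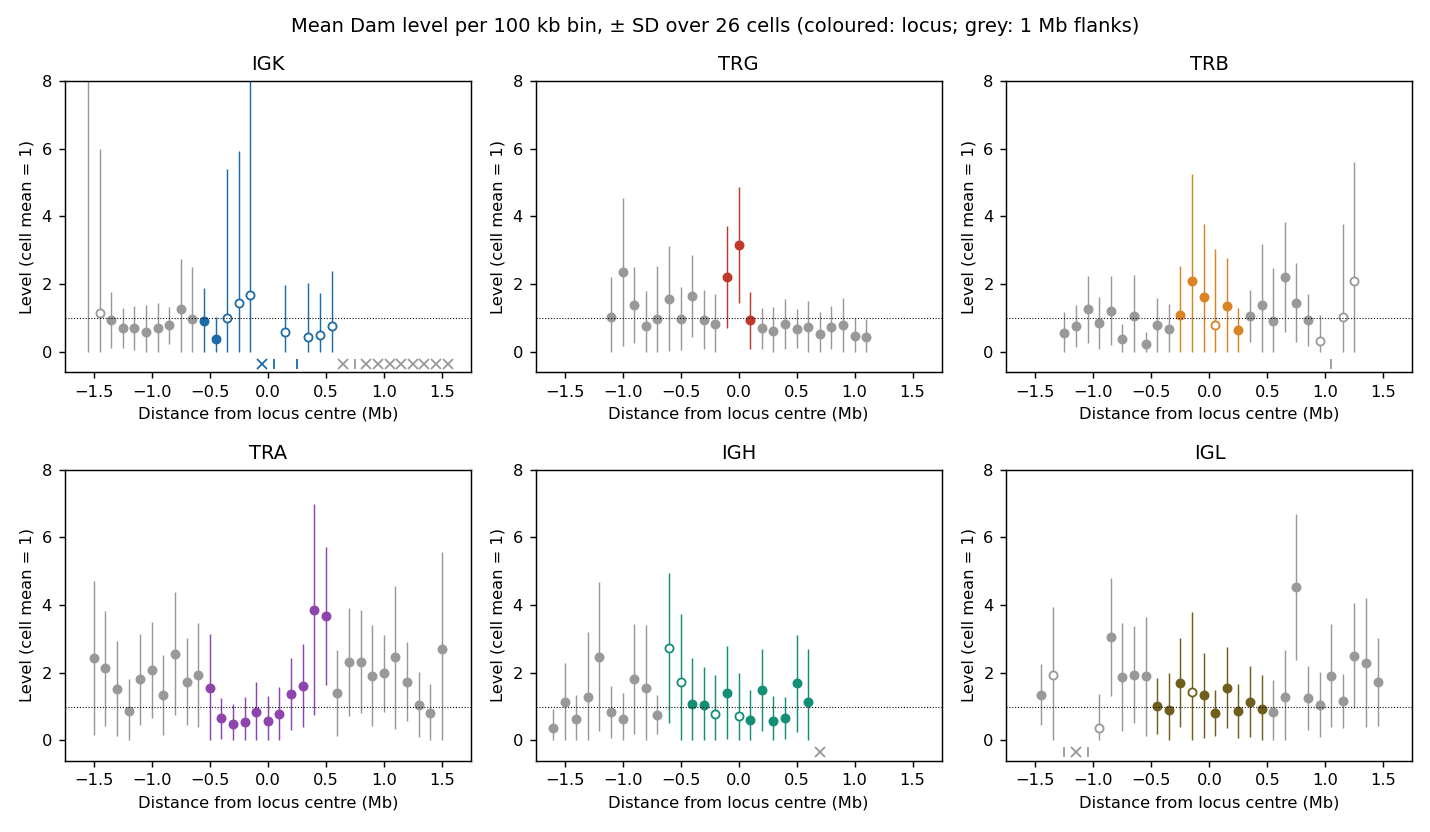
Mean level per 100 kb bin (y axis, cell mean = 1) with SD over 26 cells against distance from the locus centre in Mb, with locus bins in colour and the 1 Mb flanks in grey. Open circles are bins of low expectation, crosses bins without a value and vertical ticks bins at 0 in every cell; SD bars stop at 0, and the first IGK flank bin (mean 9.10) lies above the axis. TRG and the high-coordinate end of TRA rise to 3.16 and 3.86, while the 10 bins of IGL stay between 0.813 and 1.71.

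TRG, on chromosome 7 from 38200001 to 38500000, had the highest level of the 6 loci and stood above its surroundings. Its level ran from 0.500 (cell 22) through a median of 2.01 to 3.58 (cell 18), a mean of 2.10 ± 0.861 (SD, n = 26 cells). The 20 bins within 1 Mb on either side averaged 0.948 ± 0.342. TRG was higher than these flanks in 24 of 26 cells, by 1.15 ± 0.843, and 7.73% of all windows of 3 bins met the same rule. The ranges of locus and flanks overlapped between cells, with the highest flank at 1.68. Summed over cells, the 347 counts in TRG gave 2.23 times the flank level (interval 1.97 to 2.51).

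The higher values of TRG lay in its first 2 bins. The first bin, at the end that holds the constant genes, averaged 2.21 ± 1.51 and the middle bin 3.16 ± 1.71, with a count of the middle bin present in 25 cells. The third bin, nearest the AMPH end, averaged 0.933 ± 0.848, close to the flank mean. Flank bins were unequal on the sides of the locus, at 1.25 ± 0.598 on the STARD3NL side and 0.649 ± 0.293 on the AMPH side. Against either side alone TRG was higher, in 22 and 25 cells. TRG was also higher than the rest of chromosome 7 (0.916 ± 0.0910) in 23 cells, where 13.1% of windows of 3 bins were called higher. Among all windows of its length, 94.4% had a lower mean level.

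TRB, further along chromosome 7 from 142000001 to 142600000, did not differ from its flanks beyond the spread between cells. Its level ran from 0.231 (cell 3) through a median of 1.04 to 5.45 (cell 23), a mean of 1.26 ± 1.04 (SD, n = 26 cells). The flanks averaged 1.01 ± 0.452, and TRB was higher in 18 cells, by 0.254 ± 0.935, short of the 21 required. Cell 23 carried much of that mean, and without it the difference was 0.116. The summed counts gave 1.10 times the flank level (interval 0.969 to 1.25), which spans 1. The direction depended on the side compared: the low-coordinate flank was at 0.778 and the high-coordinate flank at 1.26, and against the latter alone the mean difference was -0.0011.

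Inside TRB the bins were uneven and noisy. The second bin was highest at 2.09 ± 3.16, with cell 23 at 15.8, and the last bin, which lies at the constant end, was lowest at 0.654 ± 0.646. That last bin reached a ratio of 1 in 5 cells. The fourth bin did so in 5 cells as well, and its expected count was 38.6% of the median bin's. TRB also shares its stretch with the trypsinogen genes PRSS1 and PRSS2 in the annotation, which encode digestive proenzymes of the pancreas.

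TRA with TRD, on chromosome 14 from 22000001 to 23100000, was split into a low stretch and a high end. Over the whole locus the level ran from 0.434 (cell 22) through a median of 1.41 to 4.31 (cell 10), a mean of 1.45 ± 0.729 (SD, n = 26 cells). The flanks averaged 1.86 ± 0.536, and the locus was lower in 18 cells, by 0.405 (SD 0.551), which missed the 21-cell rule. The summed counts, 1085 in the locus, gave 0.848 times the flank level (interval 0.787 to 0.912). Against the rest of chromosome 14 (0.986 ± 0.189) TRA was higher in 21 cells, where 22.5% of windows of 11 bins were called higher.

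The last 2 bins of TRA, at the constant end next to DAD1 in gene order, carried the highest values of any receptor bin. They averaged 3.86 ± 3.11 and 3.69 ± 2.04, and the first of them had a count in all 26 cells. Together their level ran from 0.597 (cell 2) through a median of 3.53 to 14.0 (cell 10). The other 9 bins averaged 0.936 ± 0.467, and the last 2 exceeded them in 24 cells. Those 9 bins were lower than the flanks in 25 cells. This division into 2 and 9 bins was chosen after the values were seen, so both counts only describe it. The third bin was the lowest, at 0.476 ± 0.608. Like the fourth and the sixth it reached a ratio of 1 in at most 20% of cells, as did 33.5% of all used bins. The annotation places olfactory receptor genes (OR10G2, OR4E2 and OR4E1) among the TRA variable segments. No gene was placed in a bin, so whether the last 2 bins hold DAD1 as well as constant genes was not tested.

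**Figure D2:**
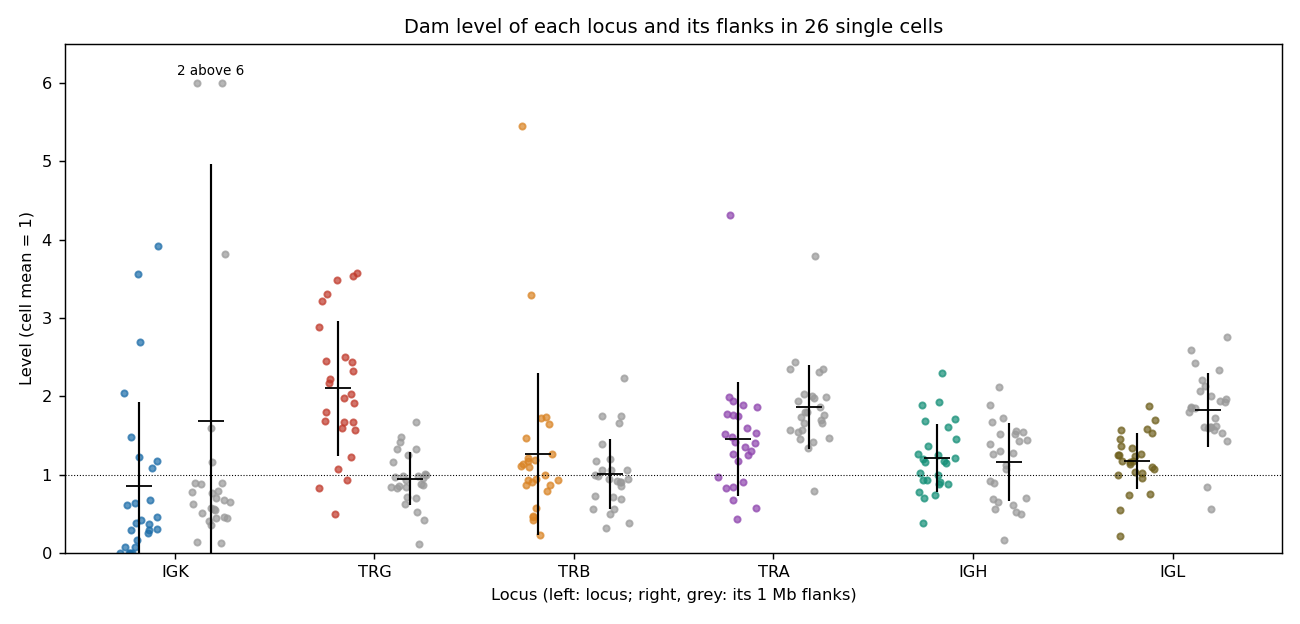
Level of each locus (coloured points) and of its 1 Mb flanks (grey points) in each of the 26 cells, on a linear y axis with the cell mean at 1 and black bars for the mean and SD, which stop at 0. Values above 6, which occur only for 2 IGK flanks, are drawn at 6. TRG lies above its flanks in 24 cells and IGL below its flanks in 24 cells, and the point clouds overlap at each locus.

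IGH, on chromosome 14 from 106000001 to 107300000, was close to its flank. Its level ran from 0.387 (cell 13) through a median of 1.17 to 2.30 (cell 8), a mean of 1.21 ± 0.438 (SD, n = 26 cells). Used flank bins existed only on the low-coordinate side, towards TMEM121, and they averaged 1.15 ± 0.498. IGH was higher than this flank in 17 cells, by 0.0552 ± 0.447, which is well inside the spread between cells. The summed counts gave 0.964 times the flank level (interval 0.852 to 1.09), and without low-expectation bins the mean difference was -0.0754. The rest of chromosome 14 was at 0.989 ± 0.195, exceeded by IGH in 17 cells.

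Across its 13 bins IGH varied less than TRA. The first bin, at the constant end, was highest at 2.74 ± 2.22, and reached a ratio of 1 in 19 cells with an expected count at 25.6% of the median bin. The tenth bin was lowest, at 0.588 ± 0.718. The second bin, at 1.73 ± 2.00, was also a bin of low expectation. No IGH bin was marked in at least 80% of cells, and none in at most 20%, against 5.61% and 33.5% of all used bins. Where the expected count is low, 1 count can bring a cell to a ratio of 1. The first IGH bin had a count in 20 cells and reached that ratio in 19.

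IGL was the only locus called lower than its surroundings. It lies from 22300001 to 23300000 on the sequence that the table names 22:9, the derivative chromosome of the Philadelphia translocation. Its level ran from 0.209 (cell 22) through a median of 1.17 to 1.87 (cell 26), a mean of 1.17 ± 0.359 (SD, n = 26 cells). The 17 used flank bins averaged 1.82 ± 0.473, and IGL was lower in 24 cells, by 0.650 (SD 0.517). Among all windows of 10 bins, 22.2% were called lower than their flanks. Cells 9 and 26 were the exceptions. The summed counts, 704 in the locus, gave 0.607 times the flank level (interval 0.555 to 0.663).

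Both sides of IGL were higher than the locus. The low-coordinate flank, on the TOP3B side in gene order, was at 1.77 ± 0.601 and exceeded IGL in 23 cells. The high-coordinate flank, on the RSPH14 side, was at 1.86 ± 0.544 and exceeded IGL in 25 cells. The bin from 23500001 to 23600000 in the high flank averaged 4.54 ± 2.16 and reached a ratio of 1 in all 26 cells. The position of the join to chromosome 9 on 22:9 was not given in the sources used here, so part of the high flank may be chromosome 9 sequence. Against the rest of 22:9 (1.34 ± 0.259) IGL was lower in 22 cells, where 40.0% of windows of 10 bins were called lower. That last call ended when low-expectation bins were left out (18 cells) or when counts were summed before division (19 cells).

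Within IGL no bin was marked in at least 80% of cells or in at most 20%, against 5.61% and 33.5% of all used bins. The third bin was highest at 1.71 ± 1.31 and the sixth lowest at 0.813 ± 0.674. In the annotation IGL also contains VPREB1 and IGLL5, which belong to the immunoglobulin light-chain family, and PRAME, a cancer-testis antigen gene. Genes were not assigned to single bins here.

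IGK, on chromosome 2 from 89100001 to 90300000, was the most weakly measured locus. Of its 12 bins 1 had no value and 2 were 0 in every cell. The bins from 89600001 to 89800000 were such a run of a missing and an empty bin. Of the 9 used bins, 7 had low expectation, and the median expected count was 20.6% of that of the median bin. The locus held 114 counts over all 26 cells, and 4 cells had none.

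The level of IGK ran from 0 (4 cells) through a median of 0.398 to 3.92 (cell 24), a mean of 0.853 ± 1.08 (SD, n = 26 cells). Its flank, usable only on the RPIA side, averaged 1.69 ± 3.28 with a median of 0.666. IGK was lower than this flank in 18 cells, which missed the rule. The mean difference of -0.834 (SD 3.16) rested on a few cells: the first flank bin averaged 9.10 ± 32.2 from counts in 2 cells, with cell 23 at 122. Without cell 26 the difference was -0.389, and without the 6 cells of lowest total count it turned to 0.0912. Of the alternatives run, only flanks of 2 Mb gave a call, with IGK lower in 24 cells. The summed counts gave 0.919 times the flank level (interval 0.738 to 1.14), so no difference from the flank was detectable at this depth.

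Bins of IGK differed mainly in how few cells had a count. The fifth bin had the highest mean, 1.68 ± 6.53, but its 2 counts came from 2 cells and its expectation was 2.53% of that of the median bin. The second bin was lowest, at 0.368 ± 0.659, from 23 counts. The bin at the constant end was the best covered, with 50 counts and a level of 0.913 ± 0.965.

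The end with the constant genes was then compared with the end of variable segments inside each locus, splitting the bins at the middle. TRG, TRA and IGH have an odd number of bins, and their middle bin was left out of both ends. Ends were named from gene order. Whether their outer bins also hold neighbouring genes, such as STARD3NL, EPHB6 or DAD1, was not tested. At TRA the constant end was higher in 25 of 26 cells, at 2.26 ± 1.23 against 0.817 ± 0.529, a difference of 1.44 ± 0.990. Windows of 11 bins with either end higher in at least 21 cells made up 27.8% of all. The summed ratio at TRA was 2.72 (interval 2.35 to 3.15). Without the 2 outermost bins, an alternative chosen after the data were seen, the difference fell to 0.436 and held in 19 cells.

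No other locus met the rule between its ends as split at the middle. TRG came closest, with its constant-end bin higher in 20 cells, at 2.21 ± 1.51 against 0.933 ± 0.848. With 1 bin per end, TRG has too few bins for a firm split, and its highest bin (3.16 ± 1.71) was in neither end. Whether its last bin holds variable segments was not tested. The other end of TRG was higher in 3 cells, and the remaining cells were at 0 in both bins. IGH was at 1.47 ± 0.740 against 1.03 ± 0.394, higher in 18 cells. Without low-expectation bins the IGH difference was 0.144 and held in 13 cells. IGK was at 1.08 ± 1.68 against 0.571 ± 0.790, with the constant end higher in 14 cells, the variable end in 8 and the remaining cells at 0 in both. Summed over cells, the constant end of IGK had 1.07 times the level of its variable end (interval 0.698 to 1.67). The same ratio was 2.16 (1.59 to 2.94) at TRG, 1.38 (1.14 to 1.66) at IGH, 0.612 (0.483 to 0.773) at TRB and 0.891 (0.766 to 1.04) at IGL. At TRB and IGL the means ran the other way, 0.928 ± 0.872 against 1.59 ± 1.96 and 1.07 ± 0.548 against 1.28 ± 0.599, with the constant end higher in 10 and 13 cells. Without cell 23 the TRB difference moved from -0.666 to -0.280. Without the 2 outermost bins at the constant end, the alternative added after seeing the data, the TRB difference was -0.807 and its variable end was higher in 21 cells, which met the rule. That cut left only the fourth bin at the constant end of TRB, a bin of low expectation with 14 counts from 8 cells. The other cells were therefore at 0 at that end.

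**Figure D3:**
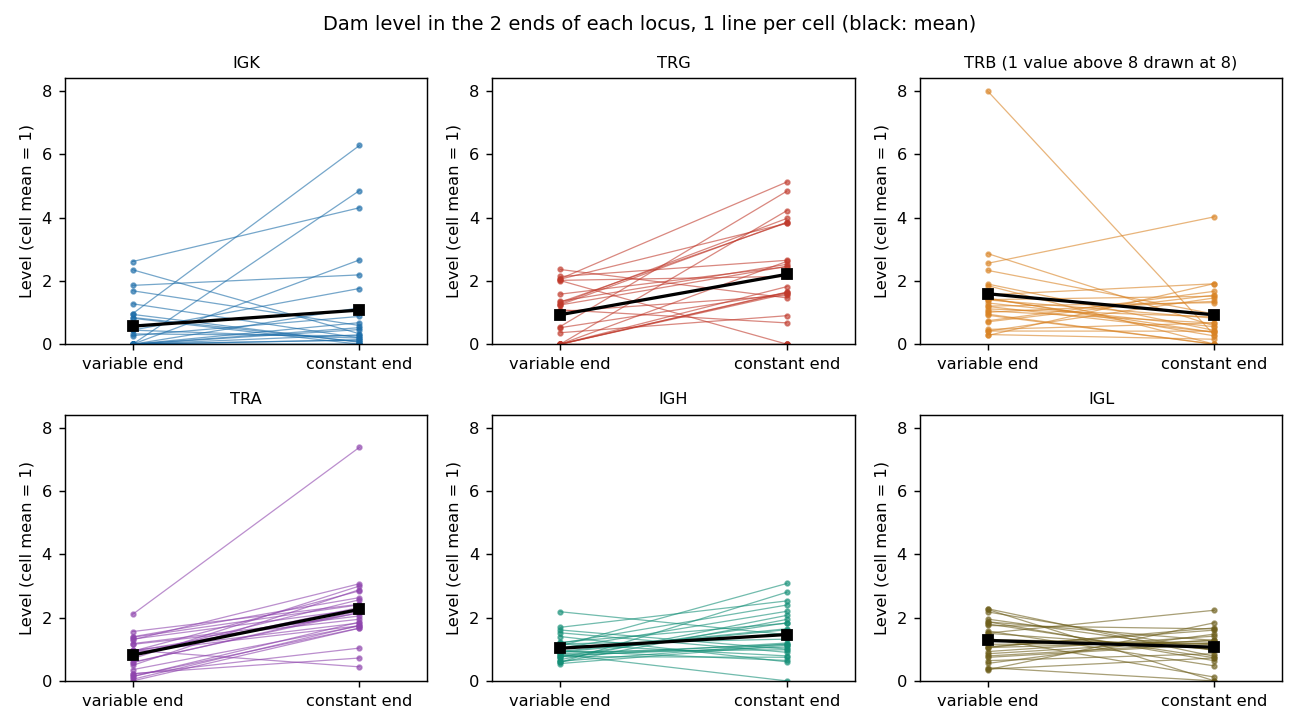
Level of the constant end and of the variable end of each locus on a linear y axis (cell mean = 1), with a line for each of the 26 cells and the mean in black; 1 TRB value above 8 is drawn at 8. At TRA 25 of 26 lines are higher at the constant end, while at IGL the lines divide 13 to 13.

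Set in order of mean level, the loci ran TRG (2.10), TRA (1.45), TRB (1.26), IGH (1.21), IGL (1.17) and IGK (0.853). Only the first neighbours in this order differed by the rule, with TRG above TRA in 22 cells. TRA exceeded TRB in 19 cells, TRB exceeded IGH in 11, IGH exceeded IGL in 15 and IGL exceeded IGK in 20. The 4 middle and lower steps therefore do not order the loci beyond the spread between cells. TRG was the highest of the 6 in 17 cells and IGK the lowest in 18.

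**Figure D4:**
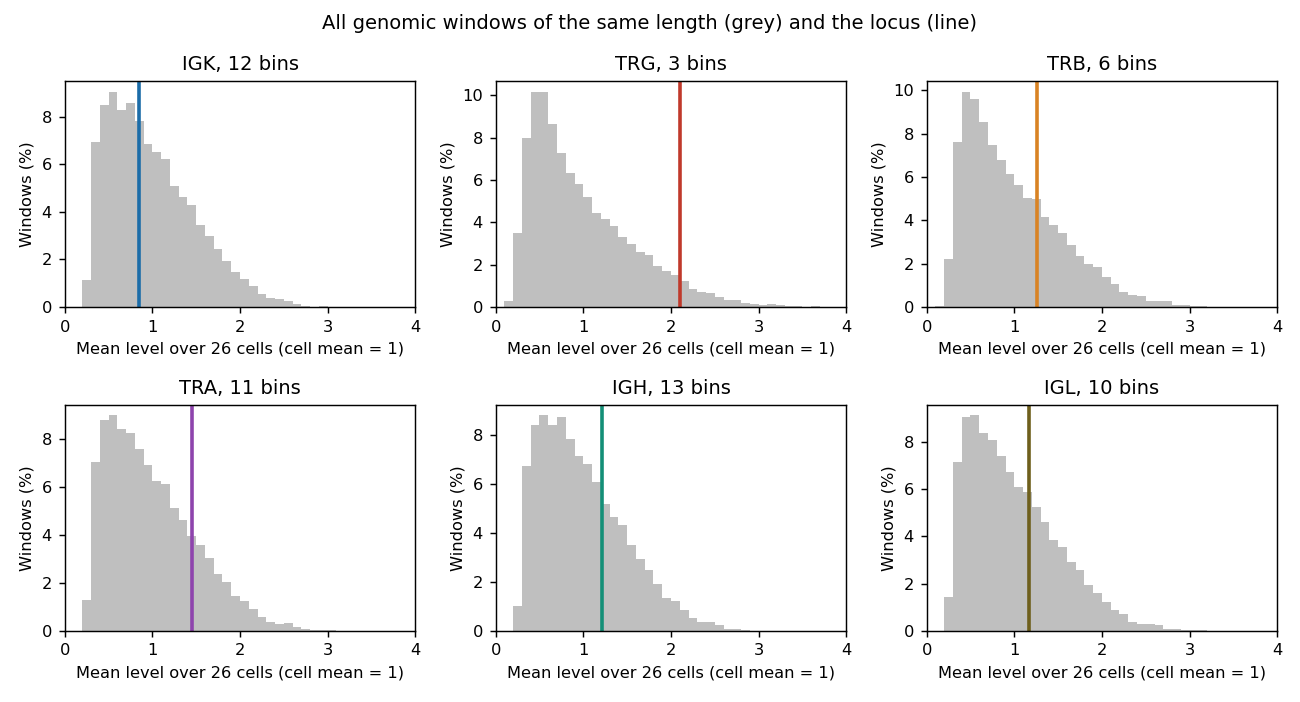
Distribution of mean level over all windows of the same number of bins as each locus (x axis, level with the cell mean at 1; y axis, share of windows), with a line at the locus. Of the windows of matching length 94.4% lie below TRG, 81.6% below TRA, 72.2% below TRB, 70.6% below IGH, 67.8% below IGL and 46.8% below IGK. Windows overlap, so this is a description, and IGK has a smaller share of used bins than was required of the windows.

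Among windows of matching length the loci other than TRG lay in the broad middle of the genome. TRA stood above 81.6% of windows, TRB above 72.2%, IGH above 70.6%, IGL above 67.8% and IGK above 46.8%. The place of IGK is uncertain, because with 9 of 12 bins used it falls short of the 80% required of the windows. Its level of 0.853 was 0.704 with counts summed before division and 0.558 with ratios capped at the 99th percentile. Position on the own chromosome changed this most for IGL, which stood above only 24.4% of the windows of 22:9.

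The spread of levels over cells was not the same at each locus. The coefficient of variation over cells was 126% at IGK and 82.3% at TRB, and between 30.6% (IGL) and 50.2% (TRA) at the other 4 loci. Counts were few, with a median per cell of 3 at IGK, 9 at TRG, 12 at TRB, 15 at IGH, 22.5 at IGL and 35 at TRA. TRG thus had fewer counts than TRB and a smaller coefficient. The part of counting error in these spreads was not tested. Cell 23, at 5.45, adds to the spread at TRB. Windows of matching length had a median coefficient of 41.9% for IGK, 53.8% for TRB and 70.4% for TRG, where the locus itself was at 41.0%. Cell 22 had 0 of the 6 loci above its own mean and was the lowest cell at TRG, TRA and IGL and among the 4 without a count at IGK. In cell 24 all 6 loci were above the cell mean. Cell 22 is also among the 6 cells with the lowest total counts, and the part of depth in its values was not tested.

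**Figure D5:**
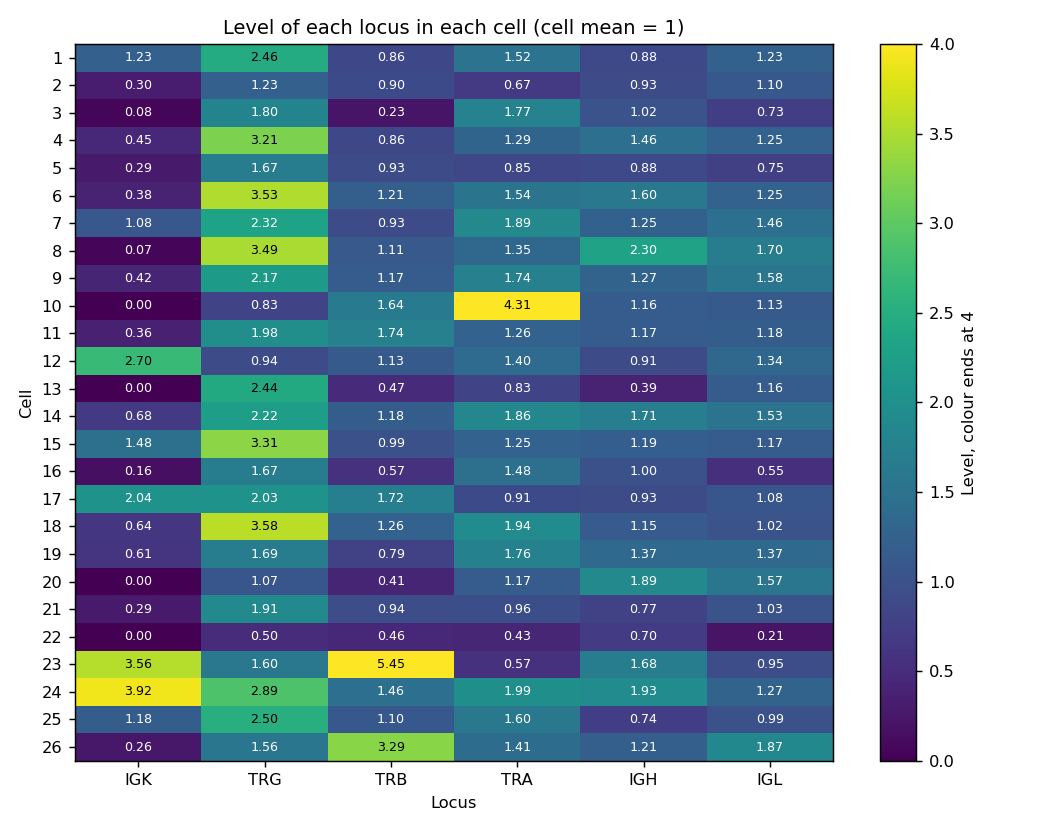
Level of the 6 loci (columns, x axis) in each of the 26 cells (y axis), printed in each field, with colour from 0 to 4 and higher levels drawn in the end colour. Cell 22 has no locus above 1 and cell 24 has all 6 above 1.

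Levels of the loci were weakly related across the 26 cells. The 15 Spearman correlations between pairs of loci ran from 0.0973 (IGK with IGL) to 0.636 (IGH with IGL), with a median of 0.262. All were above 0, and all loci of a cell share its library and depth. The pairs on the same chromosome lay on either side of that median, at 0.132 for TRG with TRB and 0.352 for TRA with IGH. IGH followed its own flank at 0.563, and the other loci followed theirs at 0.0899 (TRA) to 0.291 (IGL). With the total count of the cell, correlations ran from -0.136 (TRB) to 0.424 (TRG).

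For each locus the 1 Mb window on another chromosome with the most similar levels across cells was found, and these best matches were picked from 2369 to 2589 windows. TRA matched a window on chromosome 1 from 151000001 to 152000000 (Spearman 0.754) and IGH one on chromosome 16 from 15000001 to 16000000 (0.729). TRG matched a window on chromosome X from 40000001 to 41000000 (0.727). The remaining best matches were all on chromosome 1, starting at 49000001 for IGK (0.676), 113000001 for TRB (0.675) and 94000001 for IGL (0.662). As the highest of so many values from shared libraries, these correlations describe likeness in these cells only.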

How the data were processed

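DNA of 26 single KBM7 cells was measured by DamID after 21 PCR extension steps, per the labels' protocols. The authors deposited 1 table of observed-over-expected ratios in 100 kb bins. Per the submitters' processing notes it was made with cutadapt, Bowtie2 (2.1.0) and hg19; for read counting, masking, duplicates and the expectation, the sources used here give no method. All 26 columns were matched to cells by their labels, and 0 were left unmapped.

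Each bin's ratios were turned into the smallest whole-number counts per cell (tolerance 0.001, largest distance 2.49e-13). Levels, flanks of 1 Mb, ends and windows (at least 80% of bins used) followed from the ratios, computed with pandas 2.3.3, scipy 1.17.1, numpy 2.4.6 and Python 3.11.15 (figures with matplotlib 3.10.9). The recovery of counts and the ratio of locus to flanks were tried on simulated data, while the ends and windows were not. Each locus's highest and lowest bins, bins at a ratio of 1 or more in at least 80% of cells, and runs of empty bins are named. The members, lists and rules were chosen with earlier results of these data known. Alternatives covered empty and low-expectation bins, summed counts, capping, flank width and side, and cells left out. GC content, GATC density and copy number were not tested.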

Additional observations from a re-analysis of the deposited data

How the results depend on the processing

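Of 626 recomputed values 622 kept their direction or stayed within the spread between cells, 4 moved and 0 reversed a called direction. Most of the 626 left out 1 cell, so the tally says little about the other alternatives. A call gained or lost did not by itself count as a move. IGL lost its call against the rest of its chromosome without low-expectation bins (lower in 18 cells) and with summed counts (19 cells). IGK gained a call with flanks of 2 Mb (lower in 24 cells), and its flank difference turned to 0.0912 without the 6 cells of lowest count. TRG stayed above its flanks (0.853 to 1.45) and IGL below them (-0.788 to -0.463) under each of the 11 alternatives chosen at the outset. The constant end of TRA against its variable end moved from 1.44 to 0.436 without its 2 outermost bins, an alternative chosen after the data were seen, as was leaving out each cell. The same cut gave TRB a call, with its variable end higher in 21 cells. With a bin counted at a ratio of 0.5 or more, 8 receptor bins (15.4%, against 17.8% of all bins) were marked in at least 80% of cells and 6 (11.5% against 6.86%) in at most 20%, so that the latter comparison turned. At a ratio of 2 or more, 2 (3.85% against 0.460%) were marked in at least 80% and 34 (65.4% against 75.1%) in at most 20%. TRG's constant end, of 1 bin and higher in 20 cells, met the rule without the 6 cells of lowest count and in 6 of the 26 fits that left out 1 cell. The comparison of the ends of IGK without low-expectation bins gave no value, because no used bin of the variable end was left. IGK and IGH could not be compared with a high-coordinate flank, where no bin was used. No paired analysis was possible because all cells form 1 group, with no second group to match by replicate number. The comparisons with flanks and between ends were each made within a cell. Depth limits IGK most, with 114 counts in 26 cells.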
